A study of Mus musculus with 11 samples.

Results

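Heat-shock-high spots were the 10% of capture spots with the most Hspa1a and Hspa1b transcript in each of the 2 mouse liver sections taken 24 h after paracetamol (acetaminophen, APAP), and they were compared with the bottom 50% of spots of the same section. They numbered 417 (252 in section A and 165 in section B), against 2084 heat-shock-low spots (1260 and 824), of 4169 spots that passed filtering at 24 h and 25136 in all 11 sections of the series. A spot had to lie under tissue, hold at least 800 detected genes and carry at most 20% of unique molecular identifiers (UMIs, counted transcripts) from mitochondrial genes. Spots were ranked by Hspa1a plus Hspa1b UMIs per 10000 UMIs, UMIs of each gene were then summed per section and class, and the 2 ranking genes were left out of every result.

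The series profiled frozen, thin sections of whole mouse liver by spatial 3′ gene expression (10x Visium), in which each spot captures RNA from a small disc of tissue that can hold several cells. It comprised 3 uninjured sections (0 h, no APAP), 2 sections at 24 h, 2 at 36 h and 4 at 48 h after overdose, the last 3 groups being labelled POD. The animals were adult wild-type C57BL/6JCrl mice, and injured ones were fasted and then injected intraperitoneally with a single dose of APAP. According to the methods, the sections of each time point came from a single mouse, and the labels do not tie sections to animals. The p-values between classes therefore hold no spread between mice. They rest on 2 sections and mostly on a spread shared across genes, and mouse and time cannot be told apart. Passing spots of the 24 h sections held 45997655 UMIs in A and 31895764 in B, with medians of 17622 and 19084 UMIs per spot, against section medians of 15169 to 29950.0 elsewhere.

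The heat shock response is a transcriptional programme in which heat shock factor 1, freed when unfolded protein accumulates, binds heat shock elements in promoters and switches on genes for molecular chaperones. HSP70 proteins hold exposed hydrophobic stretches of client proteins, HSP40 (DNAJ) co-chaperones deliver clients to them and stimulate their ATPase, HSP90 completes folding of signalling clients, and small heat shock proteins keep unfolded protein soluble. In the liver, APAP is oxidised by cytochrome P450 enzymes of pericentral hepatocytes to a reactive quinone imine that depletes glutathione, binds proteins and kills these cells.

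Promoter sequence is shown for the pair of genes that chose the spots and for 3 chaperone genes that were more than 2-fold higher in high spots, because the motif that heat shock factors recognise could be looked up there. Each window is the 250 bases before the annotated start of the gene, from RefSeq on GRCm38.p6, printed 5′ to 3′ along the gene's own strand. Capitals mark the 2-unit element GAANNTTC, which reads the same on both strands. The other 2-unit order, TTCNNGAA, was not searched on its own and is not marked. The Hspa1b window (chr17:34959239-34959488, minus strand) matched that of its neighbour Hspa1a at 247 of 250 positions. The Hspb1 window lies at chr5:135887669-135887918 (plus strand), that of Hspe1 at chr1:55087898-55088147 (plus strand) and that of Dnajb1 at chr8:83607925-83608174 (plus strand).
Hspa1b: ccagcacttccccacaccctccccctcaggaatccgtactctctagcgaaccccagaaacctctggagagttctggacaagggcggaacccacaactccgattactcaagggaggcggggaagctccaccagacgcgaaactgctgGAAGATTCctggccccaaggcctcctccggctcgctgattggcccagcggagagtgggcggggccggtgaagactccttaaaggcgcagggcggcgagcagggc
Hspb1: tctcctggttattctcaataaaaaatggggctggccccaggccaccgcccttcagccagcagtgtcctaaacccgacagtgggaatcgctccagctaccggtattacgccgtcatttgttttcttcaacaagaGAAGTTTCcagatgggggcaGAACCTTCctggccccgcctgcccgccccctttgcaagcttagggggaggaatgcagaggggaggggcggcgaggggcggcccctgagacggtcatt
Hspe1: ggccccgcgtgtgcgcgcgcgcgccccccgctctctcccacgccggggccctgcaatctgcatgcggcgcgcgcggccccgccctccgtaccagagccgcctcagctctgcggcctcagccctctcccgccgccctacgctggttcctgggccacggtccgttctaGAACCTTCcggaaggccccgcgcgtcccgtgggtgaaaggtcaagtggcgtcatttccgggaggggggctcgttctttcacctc
Dnajb1: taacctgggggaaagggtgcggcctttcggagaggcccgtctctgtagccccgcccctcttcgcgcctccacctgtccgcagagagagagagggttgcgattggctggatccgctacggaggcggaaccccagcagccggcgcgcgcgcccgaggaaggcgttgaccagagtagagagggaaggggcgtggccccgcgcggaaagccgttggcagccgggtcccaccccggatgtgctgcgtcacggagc
The element began 104 bases before the start in Hspa1b, 117 and 97 bases before it in Hspb1 and 84 bases before it in Hspe1, and these letters were not in this Dnajb1 window. In Hspe1 the element belonged to a longer one of 3 units (GAANNTTCNNGAA or TTCNNGAANNTTC). Hspe1 and Hspd1 are transcribed head to head, and their windows shared 215 bases, which include this element. Of 27025 genes with a window, 7.73% held the 2-unit element and 0.514% the 3-unit element.

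The ranking values themselves are given as a description. Hspa1a and Hspa1b together made up 448 UMIs per 1000000 UMIs in section A and 259.6 in section B, against 10.5 to 34.7 in the 3 uninjured sections, 3.81 and 14.3 at 36 h and 4.42 to 7.30 at 48 h. Within a 24 h section they were unevenly spread. The median spot of the high class had 20.1 ranking UMIs per 10000 in A and 10.4 in B, the median low spot 0.888 and 0.503, and the highest spot 88.3 and 62.9. The last spot inside the high class had 12.27 in A and 6.691 in B, and the first outside had 12.16 and 6.689. The low class ended at 1.837 and 1.253, with the next spots at 1.838 and 1.254. No gap marked either limit, so the classes are ranges of a continuous measure. No ranking UMI was found in 9.20% of spots in A and 16.3% in B. In the other sections 50.7% to 94.3% of spots had none, so that the low class there held only such spots. In 36 h B, 48 h A and 48 h C (94.3%, 91.5% and 91.0%) the high class held some of them too.

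**Figure D1:**
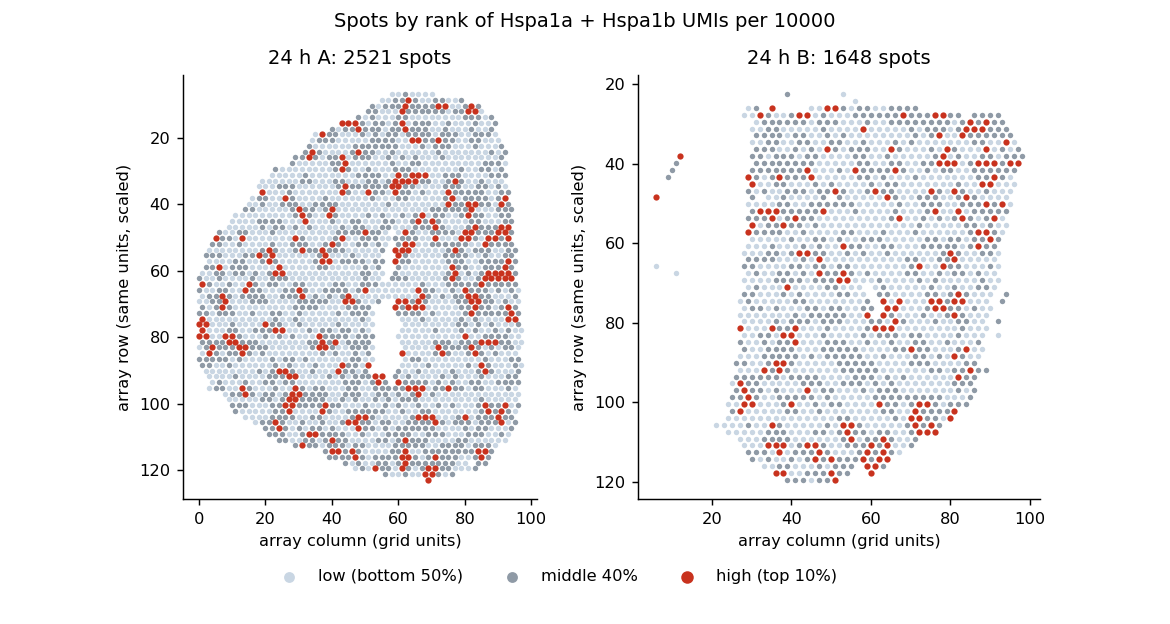
Passing spots of the 2 sections at 24 h, drawn by grid column and row, coloured by class (high, middle, low). High spots formed 93 patches in A and 82 in B, and a few spots of B, high ones among them, lay apart from the main tissue.

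High spots adjoined other high spots more often than low spots did. Of the spots adjoining a high spot, 29.0% in A and 21.7% in B were high themselves, against 3.61% and 4.95% of the spots adjoining a low spot. The largest patch held 12 high spots in A and 11 in B, and 13.5% and 30.3% of high spots had no high neighbour. High spots were also nearer to the edge, with 27.0% in A and 36.4% in B within 2 grid steps of it, against 17.7% and 18.4% of low spots. Non-high spots next to high ones carried more of the other chaperone transcripts than non-high spots farther away. They also carried more of the ranking transcripts, so this contrast is not independent of the ranking. Hspa1b stood at 243 and 135 UMIs per 1000000 next to high spots in A and B, and at 108 and 72.2 farther away. Hspa1a stood at 141 and 76.2 against 62.9 and 42.8. Dnajb1 stood at 90.8 and 72.3 UMIs per 1000000 in the 730 and 524 non-high spots that touched a high spot in A and B, and at 63.8 and 47.3 in the 1539 and 959 that did not. Hspb1 stood at 441 and 385 against 231 and 247, and Hsp90aa1 at 465 and 339 against 308 and 237. Both sections had the higher value next to high spots for each of these genes, and spots share neighbours, so no test is given.

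Depth differed less between the classes than composition did. Median UMIs per spot were 17119 (high) and 17855 (low) in A and 18120.0 and 20854 in B, and mitochondrial UMIs made up 1.72% and 1.77% in A and 2.29% and 2.06% in B. Hepatocyte marker genes (Alb, Ttr, Hp, Hnf4a, Apoa1 and Cyp2e1) took a median 6.08% of UMIs in high spots of A against 9.01% in low spots, and 7.20% against 10.4% in B. Hepatocyte marker transcripts were thus a smaller share of high spots. In summed spots, fewer cells of a type and less RNA per cell cannot be told apart.

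To ask which other genes differed between the classes, the summed counts of 12147 genes were compared with edgeR's quasi-likelihood test with the section as a block. Values below are UMIs per 1000000 after TMM scaling (a trimmed-mean scaling that centres most genes on no change), abbreviated CPM, and calls are Benjamini-Hochberg adjusted p under 0.05. The test called 4542 genes (37.4%), of which 2206 (18.2%) were higher and 2336 (19.2%) lower in high spots. Counts of called members of a list below are to be read beside these shares, except where another ranking or scaling is named. At least 2-fold differences were fewer, with 843 called genes higher (6.94%) and 261 lower (2.15%). Over all genes tested, both values of one class lay beyond both of the other for 7013 (57.7%), and 9319 (76.7%) had the same direction in both sections. Ranking spots on one part of their UMIs and comparing the rest, so that no UMI served both, gave 3441 calls. With 1 residual degree of freedom per gene, the error came almost wholly from the spread shared across genes. DESeq2 called 1775 of the same 12147 genes, an alternative chosen after seeing the data, and 1733 of 17273 genes without the low-count filter. A fit over all 11 sections called 5316 genes at 24 h, and 2954 when section A was left out of it, where the lone section B was assumed to vary like the others.

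The chaperones of the cytosol and mitochondria were higher in high spots as a few strong members and many that moved little. Dnajb1, Hsp90aa1, Hsph1, Hspb1 and Cryab were 2.85- to 3.99-fold higher, while the constitutive family members and most co-chaperones differed by much less or were lower. Over the 7 chaperone lists 75 genes were tested, 31 were called higher, 7 lower and 37 were not called. Their median log2 fold change was 0.22, beside -0.02 over all genes tested and the 37.4% of all genes called.

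Hspa8 encodes the constitutive cytosolic HSP70. In both classes it was the most abundant gene of the HSP70 list, and also above each of the 2 ranking genes. It stood at 3652 and 2629.9 CPM in high spots of A and B and at 2344 and 1529.8 CPM in low spots. Both high values lay above both low values. The difference was 0.71 ± 0.088 (log2 fold change ± SE, n = 2 sections, edgeR adjusted p = 1.68e-07). Hsph1, an HSP110 exchange factor that resets HSP70, stood at 321 and 224 CPM in high and 117 and 75.0 CPM in low spots. Its classes did not overlap, and the difference was 1.51 ± 0.086 (edgeR adjusted p = 3.28e-14).

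Other exchange factors and regulators of HSP70 differed less. Bag3, which couples HSP70 to autophagy, was 1.58-fold higher (117 and 110.1 CPM against 84.3 and 59.6). Hspbp1, a nucleotide exchange factor, was 1.42-fold higher and the mitochondrial HSP70 gene Hspa9 1.18-fold higher (edgeR adjusted p = 0.0042 and 0.0204). Hspa13, a microsomal HSP70 relative, and Bag4 fell by 0.50 and 0.58 on the log2 scale. Hspa4, another HSP110, had 57.1 and 75.0 CPM in high and 52.4 and 59.1 CPM in low spots and did not pass (edgeR adjusted p = 0.0676). Of the 19 tested members and exchange factors of the HSP70 family 6 were called higher and 2 lower, near the 37.4% of all genes called. The sixth was Hspa1l, the neighbour and near copy of the ranking genes, which rested on 6 and 3 UMIs in high and 4 and 3 UMIs in low spots and is uncertain. The calls of Hspbp1, Hspa13 and Bag4 held in the fit over all sections and were lost when section A was left out of it.

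Among the HSP40 genes Dnajb1, the heat-inducible partner of HSP70 (chr8:83608193-83612653, plus strand, GRCm38), stood apart. It reached 229 and 202 CPM in high spots, against 62.0 and 47.6 CPM in low spots. Its 2 high values lay far above both low values. The difference was 1.98 ± 0.089 on the log2 scale, or 3.94-fold (edgeR adjusted p = 2.46e-16). Dnaja1, a housekeeping cytosolic HSP40, was 1.36-fold higher, Dnajc2, which works at the ribosome, 1.63-fold and Dnajc5, a vesicle co-chaperone, 1.29-fold. Dnajc12, a co-chaperone of the aromatic amino acid hydroxylases, stood at 31.2 and 39.9 CPM in high and at 54.6 and 82.9 CPM in low spots, a fall by 0.93 ± 0.11. Dnaja3, the mitochondrial HSP40, fell by 0.31, and this direction was lost when libraries were scaled by total UMIs. In all, 5 of 17 HSP40 genes were called higher and 2 lower, at a median of 0.16, near the 37.4% of all genes called.

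HSP90 was represented by an inducible and a constitutive cytosolic gene, which differed in size of change. Hsp90aa1, the inducible one, stood at 978 and 819 CPM in high and 306 and 225 CPM in low spots (1.77 ± 0.087, 3.41-fold, edgeR adjusted p = 1.27e-15). Hsp90ab1, the constitutive one, stood at 771 and 733 CPM against 501 and 406 CPM (0.74 ± 0.086, 1.67-fold, edgeR adjusted p = 5.70e-08). Neither gene's classes overlapped. The co-chaperones Cacybp (1.54-fold), Chordc1 (1.26-fold) and Ptges3, the p23 protein that stabilises closed HSP90 (1.23-fold), were also called higher. Trap1, the mitochondrial HSP90, fell by 0.59 (74.8 and 74.4 against 116 and 109 CPM), and Fkbp5, an immunophilin that is also a glucocorticoid target, fell by 0.42. Of 14 tested genes 5 were higher, 2 lower and 7 not called, beside the 37.4% of all genes called. In the fit over all sections Chordc1 lost its call without section A, and Ptges3 without section B.

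The small heat shock proteins had the highest median of the larger chaperone lists, 0.94 over 6 genes, with 4 called higher and none lower. Hspb1 (HSP25), which holds unfolded protein and binds actin filaments, stood at 863 and 755 CPM in high and 195 and 211 CPM in low spots. The difference was 1.99 ± 0.090, or 3.98-fold (edgeR adjusted p = 7.96e-16), with no overlap. Cryab (alpha B-crystallin) stood at 70.4 and 37.5 CPM against 14.3 and 12.9 CPM (3.99-fold, edgeR adjusted p = 2.38e-08). Its classes did not overlap, although the 2 high values lay farther from each other than the lower of them lay from the low spots. Hspb8, the partner of Bag3, was 1.58-fold higher. Serpinh1 (HSP47), the collagen chaperone of the endoplasmic reticulum (ER), was 2.34-fold higher, at 118 and 54.9 CPM against 43.1 and 29.6 CPM.

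The mitochondrial chaperonin pair moved together. Hspe1 (HSP10) stood at 2424 and 1856 CPM in high and 1104 and 801 CPM in low spots (1.17 ± 0.087, edgeR adjusted p = 1.21e-11). Hspd1 (HSP60) stood at 586 and 496 CPM against 317 and 258 CPM (0.91 ± 0.083, edgeR adjusted p = 5.09e-10). Both genes had non-overlapping classes. Members of the cytosolic chaperonin TRiC and of prefoldin, which fold actin and tubulin, shifted slightly in one direction, with 9 of 13 called higher and none lower at a median of 0.27. Cct2 and Cct3 were both 1.33-fold higher, Cct5 1.30-fold and Pfdn1 1.22-fold. Cct7 was 0.33 higher on the log2 scale, Pfdn2 0.26, Cct8 0.24, Cct4 0.23 and Tcp1 0.22. In the fit over all sections Cct8 lost its call without section A, Tcp1 without section B, and Cct4 and Pfdn2 without either.

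Among the genes of the heat shock factors and their binding protein none was called higher. Hsf1, which encodes the main factor, had 15.3 and 15.6 CPM in high and 13.4 and 14.6 CPM in low spots (0.15 ± 0.16, edgeR adjusted p = 0.494). Hsbp1, whose product binds and restrains HSF1, was called lower at 157 and 178 CPM against 195 and 211 CPM, a fall by 0.28 that turned to 0.03 under scaling by total UMIs. Hsbp1 was the one called gene among 4 tested. The 30 chaperone genes of at least 10 CPM that were not called, Hsf1 and Hspa4 among them, had log2 fold changes from -0.34 (Hspb11) to 0.35 (Hspa14).

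**Figure D2:**
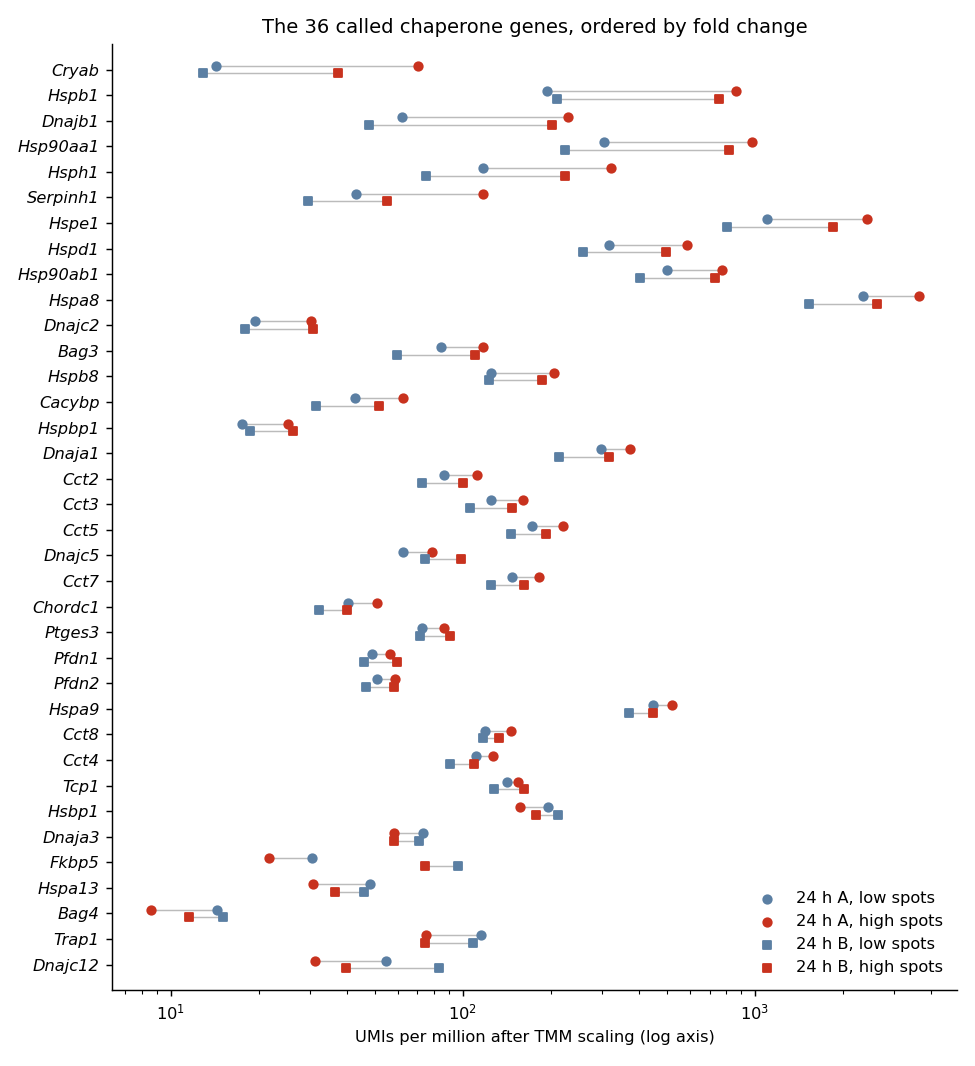
Level of the 36 called chaperone genes with at least 10 CPM (UMIs per 1000000 after TMM scaling, log axis), 1 point per section and class, with a line joining the high (red) and low (blue) spots of a section. Cryab, Hspb1, Dnajb1, Hsp90aa1 and Hsph1, at the top, have the longest lines, and the 7 genes at the bottom have their high spots to the left.

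Of the 29 chaperone genes called higher with at least 10 CPM, 20 had a promoter window and 5 of these held the 2-unit element shown above (Hspb1, Hspe1, Hspd1, Dnaja1 and Cct2). It was in its 3-unit form in 2 of them, Hspe1 and Hspd1, which share the same site read on opposite strands. Of the 7 called lower, 4 had a window and none held the element. Of the 30 not called, 27 had a window, 3 held the element and 1 its 3-unit form. Genes without a window, such as Hsp90aa1, Hsp90ab1, Hspa8 and Cryab, do not enter these counts, and a match to these letters is a description only. The other 2-unit order, TTCNNGAA, was not counted on its own. Windows of Hsph1 and Cct5 hold it, so these genes are not without any such motif.

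The difference was graded over the section. When all spots of a section were divided into 10 equal bins by the ranking value, Hspb1 went from 143 UMIs per 1000000 in the lowest bin to 993 in the highest in A, and from 130.01 to 808 in B. Dnajb1 was nearly level over the lower bins, at 51.1 in the lowest and 69.0 in the sixth bin of A (36.1 and 49.3 in B), and reached 264 and 216 in the last. Saa1, an acute phase gene, went the other way, from 2851 to 1070.1 in A and from 3958 to 1839 in B. Over 7236 genes compared, the profiles most like the ranking were those of Hspb1, Cyp4a10 (a fatty acid hydroxylase), Hsp90ab1 and the ribosomal protein genes Rplp1, Rpl37, Rpl13 and Rpl34, which increased at every step in both sections. Sprr1a, Dusp5 and Lgals3 followed (Spearman's rho of at least 0.988 over 10 bins in each section, a description since the bins share a library).

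**Figure D3:**
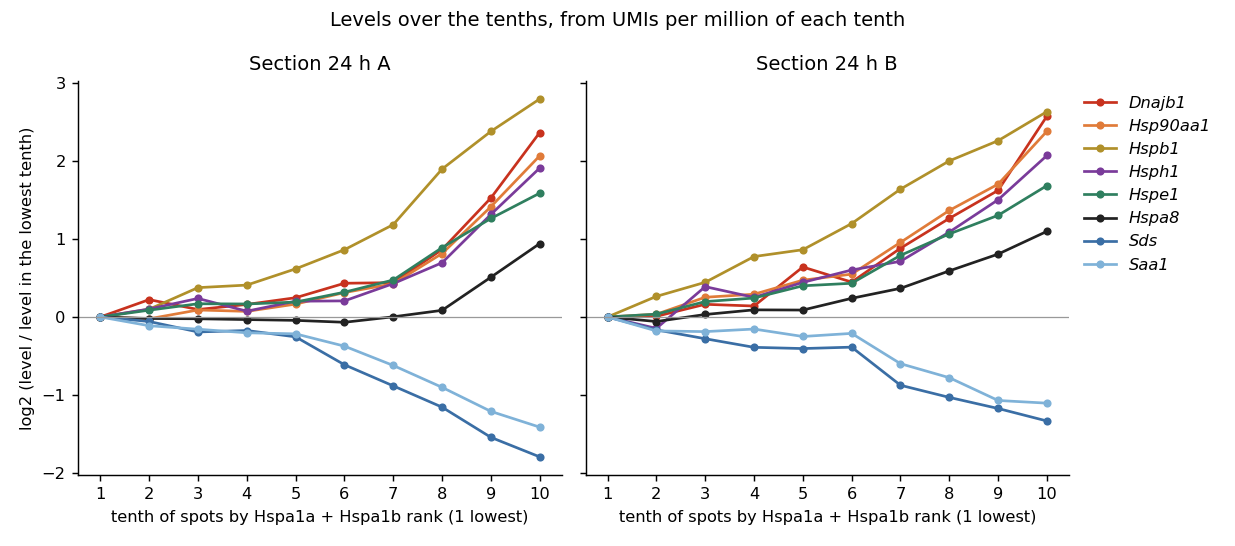
Level of 6 chaperone genes, Sds and Saa1 in each of 10 equal bins of spots ranked by Hspa1a plus Hspa1b, as the log2 ratio to the lowest bin, with 1 panel per section at 24 h and 1 line per gene. Hspb1 climbs through all bins, Dnajb1 mainly through the upper ones, and Sds and Saa1 descend.

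Transcripts for protein disposal rose with the chaperones, whereas those for chaperones of the ER were lower. Of the 31 proteasome subunit genes 25 were called higher and none lower, at a small median of 0.30. Psmb3 had 279 and 254 CPM against 172 and 147 CPM (1.67-fold), and Psma5 and Psmd14 were 1.55- and 1.49-fold higher. Among 11 ubiquitin and autophagy receptor genes 6 were higher and none lower. Zfand2a (AIRAP), which works at the proteasome under stress, was 1.59 higher on the log2 scale (65.0 and 74.1 against 20.3 and 26.5 CPM), and Sqstm1 (p62), the adaptor that carries ubiquitinated cargo to autophagosomes, was 2.38-fold higher (737 and 749.9 against 299 and 328 CPM). Map1lc3a, an autophagosome membrane protein, was 2.06-fold higher.

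Of 20 ER chaperone genes none was called higher and 16 were called lower, at a median of -0.53. Herpud1, part of ER-associated degradation, stood at 474 and 572 CPM in high and 967 and 957 CPM in low spots, a fall by 0.89 ± 0.089 (edgeR adjusted p = 4.92e-09). Creld2 and Dnajb11, which act in folding in the ER lumen, fell by 0.77 and 0.75. Herpud1 and Dnajb11 were lower in both high sums than in either low sum, while Creld2 in high spots of A exceeded low spots of B. Targets of ATF4, the factor of the integrated stress response, were split from this group. Of 14 tested, 9 were higher, 2 (Atf5 and Cth) lower and 3 not called, at a median of 0.92. Ppp1r15a, which ends the response by dephosphorylating eIF2 alpha, was 3.47-fold higher (51.5 and 45.4 against 12.3 and 16.3 CPM), Psat1 of serine synthesis 2.73-fold, the pseudokinase gene Trib3 2.19-fold and Ddit3 (CHOP) 2.15-fold.

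Immediate early genes, the first to respond to growth factors and stress, had 22 of 24 members called higher and 1, Gadd45g, lower, at a median of 1.26. Atf3, a stress-induced repressor, stood at 108 and 97.0 CPM against 19.5 and 17.7 CPM (2.47 ± 0.10, 5.52-fold, edgeR adjusted p = 6.97e-17). Maff, a small MAF factor, was 5.68-fold higher (61.4 and 62.5 against 8.57 and 14.1 CPM) and Gadd45b 4.09-fold. Myc was 3.53-fold, Egr1 3.11-fold and Jun 2.22-fold higher. Both sections showed each of these differences, with low spots below high spots throughout.

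NRF2 targets, which defend against oxidants and electrophiles, were called higher in 15 of 19 genes and lower in none, at a median of 0.74. Srxn1 (sulfiredoxin) stood at 477 and 376 CPM against 154 and 152 CPM (2.77-fold), Hmox1 (haem oxygenase 1) at 102 and 160.1 against 39.2 and 60.0 CPM (2.64-fold) and Nqo1, a quinone reductase, was 2.63-fold higher. Of 15 p53 targets 11 were higher and 1, Fas, lower, at a median of 0.45. Phlda3, an inhibitor of AKT, was 3.48-fold, the stress cytokine gene Gdf15 2.23-fold and Plk2 1.81-fold higher. Of 17 hypoxia and glycolysis genes 7 were higher and 4 lower at a median of 0.49, beside 18.2% and 19.2% of all genes. Under scaling by total UMIs 11 were higher and none lower, at 0.80, where 4338 of all 12147 genes were called higher. Ndrg1, Pkm (pyruvate kinase M) and Slc2a1 (GLUT1) were 2.48-, 2.47- and 2.37-fold higher. Metallothionein and zinc genes gave 2 of 5 called, near the 37.4% of all genes called. Both were lower, the metal transporters Slc30a10 and Slc39a14, which fell by 1.38 and 0.57. The list's median of -0.03 became 0.28 under scaling by total UMIs.

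**Figure D4:**
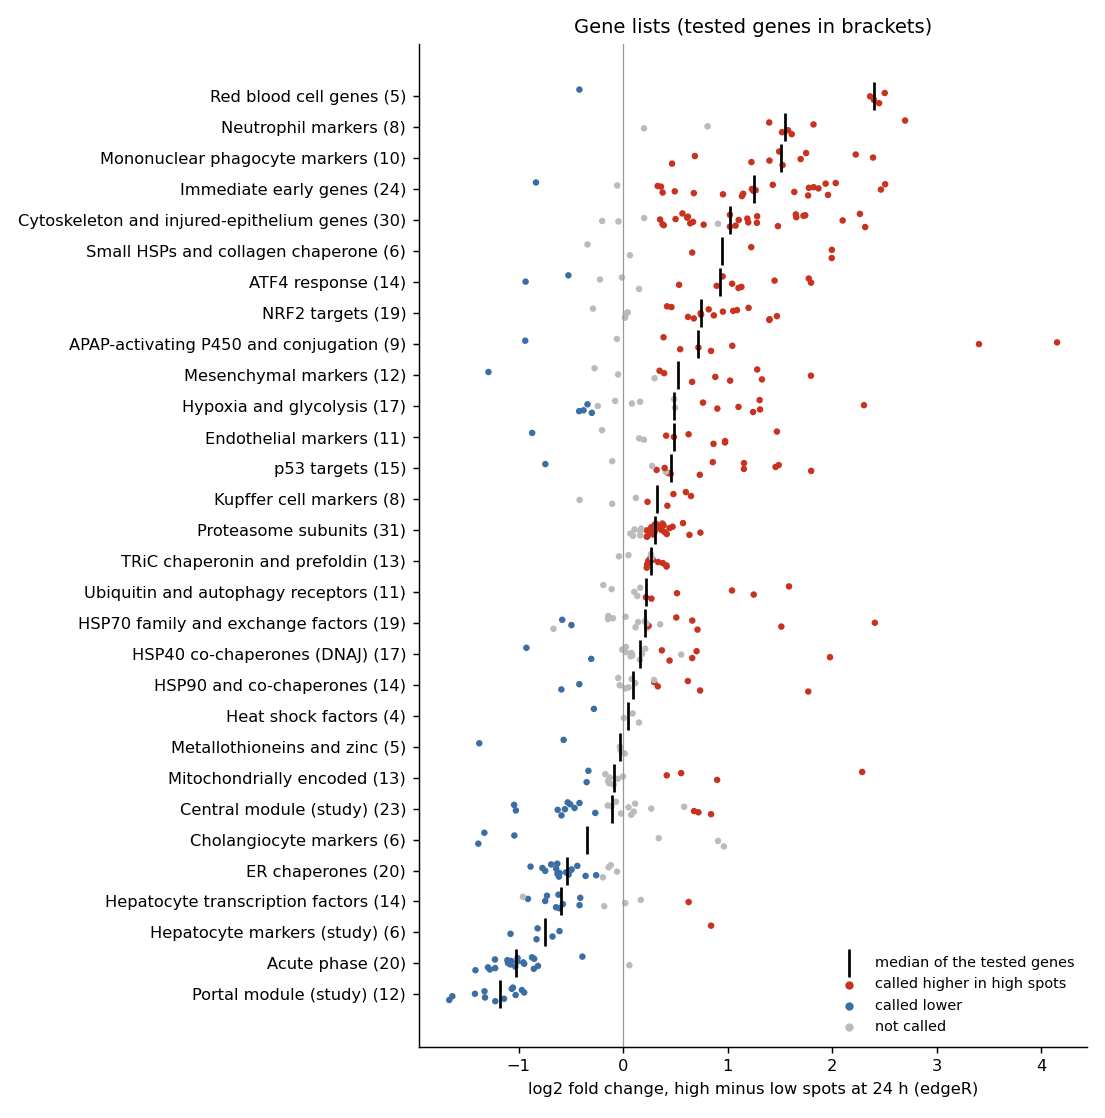
Log2 fold change between high and low spots for every tested gene of each list, with the list's median. Immediate early, ATF4 and NRF2 lists lie mostly above 0, and acute phase, portal and ER chaperone lists lie below it.

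Transcripts of differentiated hepatocytes were lower in high spots, those of the periportal zone most uniformly. All 12 genes of the study's portal module were called lower, at a median of -1.18. Sds, a serine dehydratase of gluconeogenic hepatocytes, stood at 45.3 and 215 CPM in high and 179 and 554 CPM in low spots, and Hsd17b13, a lipid droplet enzyme, at 199 and 385 against 735 and 1048 CPM. Within each section the high value was the lower one, although the level of Sds in A and B differed more than the classes did. Pck1 and G6pc, of gluconeogenesis, fell by 1.59 and 1.42. Of the study's 23 central module genes 3 were called higher and 10 lower, at a median of -0.11 that became 0.21 under scaling by total UMIs. Of 9 APAP-activating and conjugating enzyme genes 7 were higher and 1 lower. Cyp2e1, the main APAP-activating P450, was 1.79-fold higher (582 and 407 against 359 and 205 CPM), and Cyp2a5 was 2.06-fold higher. In uninjured sections the same ranking gave log2 differences of 0.35 for Cyp2e1 (edgeR adjusted p = 0.00049) and 0.69 for Cyp2a5 (edgeR adjusted p = 0.24). Scaled over all sections, Cyp2e1 in high spots (545 and 378 CPM) lay below the uninjured 2066 to 2867 CPM. Sult1a1, which sulfates APAP, fell by 0.94. The portal and central modules were chosen by the study on sections of this series, so their direction is not independent evidence of zonation.

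Acute phase genes, hepatocyte products secreted under cytokine signalling, were called lower in 19 of 20 and higher in none, at a median of -1.02. Saa1 stood at 930.0 and 1719 CPM in high and 2819 and 4027 CPM in low spots, a fall by 1.41 ± 0.096 (edgeR adjusted p = 6.91e-12), and Lcn2 and Saa2 fell by 1.29 and 1.28. Of 14 hepatocyte transcription factors 9 were lower, including the nuclear receptors Nr1i2 (PXR) and Nr1h4 (FXR), Prox1 and Hnf4a, which fell by 0.91, 0.75, 0.73 and 0.61. The one called higher was Cebpb, at 1.54-fold. Of the 6 hepatocyte markers 5 were lower, among them Hp and Alb, which fell by 1.08 and 0.83. The largest falls among genes of at least 10 CPM were those of Cyp39a1, an oxysterol hydroxylase of bile acid synthesis (1.79 and 9.15 against 13.02 and 29.9 CPM), Aldh1b1 and Hsd17b6.

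Genes of the cytoskeleton and of injured epithelium were higher in 26 of 30 and lower in none, at a median of 1.02. Sprr1a, a cornified envelope protein made by injured epithelia, stood at 556 and 466 CPM in high and 86.0 and 123 CPM in low spots (2.31 ± 0.25, 4.97-fold, edgeR adjusted p = 0.0128). Plaur, the urokinase receptor, stood at 29.8 and 39.3 against 3.98 and 11.8 CPM, a difference of 2.26 on the log2 scale. Lgals3 (galectin 3) was 3.34-fold and Anxa2 2.79-fold higher. The top 10% of spots for Sprr1a held 41.7% of the heat-shock-high spots in A and 30.3% in B, and 0.952% and 2.67% of the low spots, so the 2 sets overlapped in part.

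The largest rises outside the chaperone lists were 7.34- to 19.3-fold, among called genes of at least 10 CPM in high spots with the same direction in both sections. Muc3, a membrane mucin, stood at 43.2 and 11.9 CPM in high and 2.23 and 0.603 CPM in low spots (4.27 ± 0.20, 19.3-fold, edgeR adjusted p = 7.96e-16). High spots of B lay above low spots of A, so the classes did not overlap, and no Muc3 UMI was counted in the 3 uninjured sections. Hey1, a Notch target, was 10.7-fold, Tac1, the substance P precursor, 10.6-fold, the small GTPase gene Rrad 7.97-fold and Ankrd1, a YAP target, 7.34-fold higher. Il11, a secreted cytokine, was 8.33-fold higher (19.7 and 16.2 against 1.09 and 3.75 CPM) at an edgeR adjusted p of 0.0395. Efr3b, Samd11, Sorcs2 and Lce3c were 10.7-, 9.88-, 9.66- and 7.56-fold higher, and Gm15247 and 4732463B04Rik 11.7- and 12.1-fold. The last pair are annotated as antisense genes, and since the sources used here do not state that counting used strand, their counts are uncertain.

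Markers of other cell types moved with the classes, and these values stand beside every result above. Over all genes tested 18.2% were called higher and 19.2% lower. Neutrophil markers summed to 159 and 344 UMIs per 1000000 in high spots of A and B and to 38.1 and 101 in low spots, with 6 of 8 tested genes called higher, while the defining Ly6g had 1 UMI or none in each sum. Clec4d was 6.48-fold and S100a8 3.06-fold higher. Mononuclear phagocyte markers summed to 1039 and 792 against 301 and 278, with all 10 called higher, among them Lyz2 (2.88-fold) and Cd68 (2.34-fold). Kupffer cell markers summed to 1499.6 and 1176 against 916 and 761 (5 of 8 higher), endothelial markers to 522 and 517 against 315 and 326 (7 of 11 higher, Clec4g lower) and mesenchymal markers to 755 and 519 against 387 and 308 (8 of 12 higher, Lrat lower).
Lyve1 was 2.77-fold and Acta2 3.47-fold higher. Red blood cell genes summed to 1023 and 2691 against 197 and 382, with Hba-a1 5.46-fold higher. Cholangiocyte markers were lower, at 154 and 174 against 281 and 245, with Cdh1, Tstd1 and Spp1 called and none higher. Lymphocyte markers summed to at most 8.24 per 1000000 and mesothelial markers to at most 2.97, and no mesothelial gene was tested. The 13 mitochondrially encoded genes gave 4 higher and 2 lower, at a median of -0.09, beside the 37.4% of all genes called. Under scaling by total UMIs they gave 7 higher and none lower, at 0.21, where 4338 of all 12147 genes were called higher. Within the bins of hepatocyte markers described next they gave 6 higher and none lower at 0.27, and within bins of the portal module, chosen after seeing the data, 11 higher and none lower at 0.33. The top 10% of spots by phagocyte markers held 126 of the 252 high spots in A and 22.4% of those in B, and that by haemoglobin 32.5% and 27.3%. The part of these cells in the gene differences was not tested beyond the rankings within levels of their markers.

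To compare high and low spots of like hepatocyte-marker share, spots were ranked by Hspa1a plus Hspa1b within 10 bins of that share. The share is not a count of hepatocytes. One of its genes, Hp, stood at 17987 and 26750 CPM in low spots of A and B, scaled over all sections, against 2461 to 3666 CPM uninjured. Genes that vary with these markers are evened out by the bins themselves. The inducible chaperones and immediate early genes kept smaller differences, and the medians of most other lists moved toward 0. Called genes fell from 4542 to 419 of 12062 tested, 339 of them higher and 80 lower. Dnajb1 was then 1.34 higher on the log2 scale (edgeR adjusted p = 3.05e-27), Hsp90aa1 1.06, Hsph1 0.91, Hspb1 0.75, Hspe1 0.45, Hspa8 0.44, Hspb8 0.43, Bag3 0.42, Hsp90ab1 0.38, Hspd1 0.35 and Dnaja1 0.33, all called. Cryab and Serpinh1 had 0.78 and 0.52 and were no longer called (edgeR adjusted p = 0.0968 and 0.291), nor were Cct2, Cct3, Cct5, Pfdn1, Dnajc12 or Trap1.
Atf3 (1.33), Maff (1.43), Gadd45b (1.21) and Muc3 (2.65) kept their calls. Over all genes in this ranking 339 of 12062 were called higher and 80 lower. Of the 24 immediate early genes listed 11 were called higher at a median of 0.46, and of the 19 NRF2 targets 2 at 0.12. Of the 31 proteasome subunits 1 was called higher, at 0.08, near the share of all genes. ER chaperones had none called in either direction at -0.07. Acute phase genes had 5 called lower at -0.19, Saa1 among them (-0.38). Markers of other cells still moved with the classes in this ranking. Neutrophil markers had 5 of 8 called higher at a median of 0.48, phagocyte markers 3 of 10 at 0.65, endothelial markers 4 of 11 at 0.30, Kupffer cell markers 3 of 8 at 0.23 and mesenchymal markers 2 of 12 at 0.35. Red blood cell genes had 1 of 5 at 1.06, and genes of the cytoskeleton and injured epithelium 12 of 29 at 0.33. The part of these cells in the remaining differences was not tested in this ranking.

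Rankings within levels of the other markers, chosen after seeing the data, kept more of the chaperone differences. Dnajb1 was 1.70 higher on the log2 scale within haemoglobin bins and 1.47 higher both within bins of phagocyte and neutrophil markers and within Sprr1a bins. Hspb1 had 1.58, 1.42 and 1.03 in the same order, and Hsp90aa1 1.54, 1.34 and 1.14. These genes, Hsph1, Hspe1, Hspd1 and Hspa8 were called under all 3 rankings. Cryab (1.16) and Serpinh1 (0.69) were not called within haemoglobin bins (edgeR adjusted p = 0.074 and 0.40). The adjusted p of Dnajb1 ran from 8.2e-12 to 1.4e-118 over such rankings with edgeR, although the difference itself stayed between 1.34 and 1.93.

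**Figure D5:**
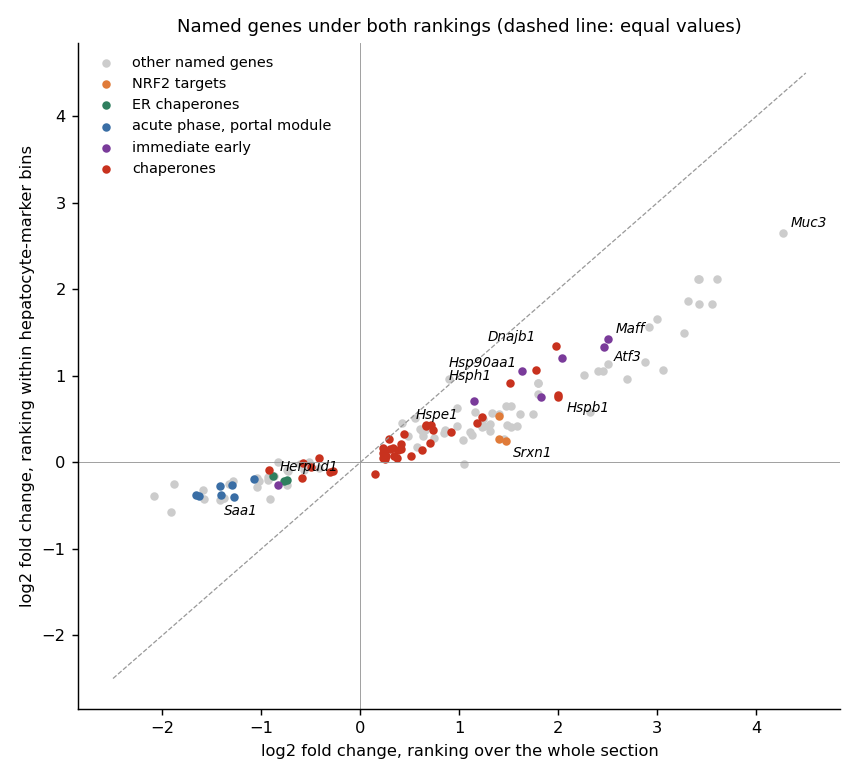
Log2 fold change of the named genes when spots were ranked over the whole section (x axis) and within hepatocyte-marker bins (y axis), 1 point per gene, with the line of equal values dashed. Nearly all points lie nearer to 0 on the y axis, and among the labelled genes Dnajb1, Hsp90aa1, Maff, Atf3 and Muc3 keep values above 1.

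To ask whether the same ranking separates spots in uninjured liver, high and low spots were formed in all 11 sections and fitted together, with a class effect for each time. In the 0 h sections, whose low spots had no ranking UMI, 83 of 13542 genes (0.613%) were called between classes. In the same fit, with low spots that likewise had no ranking UMI, the 36 h sections gave 16 called genes (0.118%, with 0.0886% higher and 0.0295% lower). The 4 sections of 48 h gave 2616 (19.3%, with 7.98% higher and 11.3% lower). At 48 h the class effect on the log2 scale was 0.49 for Cryab and 0.22 for Dnajb1 (edgeR adjusted p = 3.82e-07 and 0.017), and 0.05 for Hsp90aa1 and 0.27 for Hspb1, which did not pass (edgeR adjusted p = 0.43 and 0.30). The class effect differed between 24 h and 0 h for 3767 genes (27.8%), with 12.4% of genes having the higher and 15.5% the lower effect at 24 h, and for 2255 without section A of 24 h. Dnajb1 had a class effect of 0.13 at 0 h and one larger by 1.83 at 24 h (edgeR adjusted p = 1.35e-22). The difference in effect was 1.75 for Hsp90aa1, 1.68 for Hspb1, 1.53 for Cryab and 1.51 for Hsph1. Ranking UMIs in uninjured spots were few, with 539 to 2324 in a whole section against 20609 and 8279 at 24 h. Counting error weighs more on the classes there, and with so few ranking UMIs the split is mostly counting noise. A split by noise gives class effects near 0, so those at 0 h do not show how chaperones vary in uninjured liver. The shared spread of this fit draws on such sections and may be too small, also for its calls at 24 h.

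Low spots at 24 h were not at the level of uninjured liver for every chaperone. On a scale common to all sections, Dnajb1 had 28.6, 30.7 and 42.6 CPM in the 3 uninjured sections, 61.0 and 46.4 CPM in low and 215 and 187 CPM in high spots at 24 h, and 17.0 to 23.4 CPM at 36 and 48 h. Hspb1 had 31.6 to 38.99 CPM uninjured, 192 and 205 CPM in low and 808 and 700.2 CPM in high spots, and 32.4 to 149.6 CPM later. Both genes were above every uninjured section in low and in high spots. Hspa8 was likewise above the uninjured range of 961 to 1204 CPM in low (2308 and 1489 CPM) and high spots (3420.0 and 2439 CPM). Hsp90ab1 differed from these, with low spots (493 and 395 CPM) below the uninjured 502 to 562 CPM and high spots (722 and 679.9 CPM) above it. Hspd1 had the same order, with 312 and 251 CPM in low spots, 317 to 341 CPM uninjured and 549 and 460.1 CPM in high spots. These levels are given without a test, since the sections at 24 h share a mouse.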

How the data were processed

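The deposited files hold raw UMI counts per gene and spot, which the authors made with Space Ranger 1.0.0 on mm10; Seurat 4.1.1 is also named in their processing notes. No further normalization had been applied. Spots were kept under tissue with at least 800 genes and at most 20% mitochondrial UMIs. Counts of the 4 class sums at 24 h (high and low in sections A and B) were tested with edgeR 4.0.16 (R 4.3.3): expression filter, TMM scaling, robust quasi-likelihood fit with section as block, Benjamini-Hochberg adjustment at 0.05. Both classes of a section come from the same library, which is where the pairing comes from. All 22 sums of the 11 sections were fitted together for the comparison of times. That fit takes part of its spread from sections with few ranking UMIs, which may make it too small. The procedure was tested on simulated data. Depth limits precision for genes under 10 CPM, and intervals of UMI counts cover counting error only. Members and lists were chosen with earlier results of these data known. The text names the chaperones of at least 10 CPM that were called and a few that were not. It also draws on the 12 largest rises and 12 largest falls among called genes of at least 10 CPM in the higher class. A further 3 genes per other list were taken, and others were chosen after their values were seen. Alternatives were DESeq2 1.42.0 (with and without the expression filter), total-UMI scaling, no low-count filter, no block, other class limits, split UMIs and ranking within bins. Promoters came from RefSeq, gene positions from GENCODE on GRCm38.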

Additional observations from a re-analysis of the deposited data

Results flagged for a closer look

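The difference between high and low spots was itself different at 24 h and in uninjured liver for 3767 genes, 27.8% of those tested (edgeR quasi-likelihood test of the interaction). Among them were 35 of the 66 chaperone genes with at least 10 CPM. Values are the log2 class effect at 24 h minus that at 0 h, positive where high spots stood further above low spots at 24 h. At 0 h the split was mostly counting noise and the shared spread may be too small, so these calls are uncertain. They were largest for Dnajb1 (1.83), Hsp90aa1 (1.75), Hspb1 (1.68), Cryab (1.53), Hsph1 (1.51), Serpinh1 (1.23) and Hspe1 (1.15). Values between 0.5 and 1 were found for Hspd1 (0.89), Hsp90ab1 (0.71), Hspa8 (0.70), Hspb8 (0.64), Dnajc2 (0.61), Hspbp1 (0.59), Bag3 (0.58), Cct2 (0.54), Vbp1 (0.52) and Cacybp (0.51). Smaller ones were those of Dnajc5 (0.46), Pfdn1 (0.45), Cct3 (0.41), Cct5 (0.39), Dnajc8 (0.37), Cct7 (0.36), Dnaja1 (0.34), Ptges3 (0.32), Hspa9 (0.25), Cct8 (0.23) and Tcp1 (0.23). The effect was lower at 24 h for Dnajc12 (-1.13), Bag4 (-0.63), Trap1 (-0.61), Hspb11 (-0.49), Hspa13 (-0.46), Hsbp1 (-0.32) and Dnaja3 (-0.29). Vbp1, Dnajc8 and Hspb11 were not called between the classes at 24 h (edgeR adjusted p = 0.171, 0.175 and 0.125). Part of their values came from effects at 0 h of -0.28, -0.18 and 0.13, which were not called either.

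Among the 4 sections at 48 h, 1 section stood far from the other 3 for Hspb1, which had 149.6 CPM in section D and 32.4 to 33.7 CPM in the others. Section D was also the highest for Hsp90aa1 (346 CPM, against 116 to 225 in the others) and Hsph1 (75.2 against 18.6 to 40.8). For Dnajb1 it lay within the others (19.7 against 18.2 to 23.4). How often such a gap arises by chance was not computed, and its cause was not tested.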

How the results depend on the processing

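The 4542 calls between high and low spots became 1733 with DESeq2 on 17273 genes without the low-count filter, 724 without the replicate block of the section, 419 within hepatocyte-marker bins and, in alternatives chosen after seeing the data, 1775 with DESeq2 on the 12147 genes of the edgeR filter, 1318 within portal-module bins, 2267 within haemoglobin bins, 2287 within phagocyte and neutrophil marker bins and 1827 within Sprr1a bins. Leaving out 1 section from the fit over all sections, which called 5316 at 24 h, gave 2954 (without A) to 4624 (without B), and for the 3767 differences between 24 h and 0 h it gave 2255 (without 24 h A) to 3544. Scaling by total UMIs moved the median of all genes from -0.02 to 0.29, and 4338 of 5204 calls were then higher (83.4%, against 48.6%). For the difference between times the same scaling gave 3261 of 4190 calls higher (77.8%, against 44.4%). Without the block Dnajb1, Hsph1, Hsp90aa1, Hspb1 and Hspe1 kept their calls, whereas Hspa8, Bag3, Serpinh1 and Dnaja1 lost theirs. Over all alternatives of the 138 genes considered for naming, 2478 values kept direction and call, 392 lost the call, 8 gained one and 20 changed direction.

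Under total-UMI scaling the direction changed for Dnaja3 (0.0011), Hsbp1 (0.026) and the medians of the central module (0.21), metallothionein and zinc genes (0.28) and mitochondrially encoded genes (0.21). The last median, -0.09, was also above 0 without section A (0.0062, against -0.28 without B), within hepatocyte-marker bins (0.27), within portal-module bins (0.33) and within Sprr1a bins (0.11). Within hepatocyte-marker bins it changed for Fkbp5 (0.050), Hsf1 (-0.14), Cyp2a5 (-0.020), Alb (3.6e-05), Cth (0.0074) and the heat shock factor median (-0.045). Within portal-module bins it changed for Fkbp5 (0.055), Cyp2a5 (-0.063), Spp1 (0.19), Hsd17b6 (0.028) and the medians of heat shock factors (-0.044), hypoxia genes (-0.0057) and cholangiocyte markers (0.26). Within Sprr1a bins it changed for Hsf1 (-0.030) and the medians of heat shock factors (-0.026) and cholangiocyte markers (0.057). Bins of phagocyte and neutrophil markers turned S100a8 (-0.24), S100a9 (-0.035), C1qa (-0.20), C1qc (-0.15), C1qb (-0.14) and the medians of Kupffer markers (-0.29) and the central module (0.10). Haemoglobin bins, made from these genes, turned Hbb-bt (-0.090), Hba-a1 (-0.12), Hba-a2 (-0.19) and the red blood cell median (-0.12). The heat shock factor median also turned with the top 5% as high (-0.023), with all other 90% of spots as low (-0.028) and without spots near the edge (-0.19). Except where the bins hold the gene itself, the cause was not tested.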
